A study of Mus musculus with 6 samples.

Results

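The genes described here are the Hes and Hey genes that act downstream of Notch, together with the Notch feedback gene Nrarp and the Notch transcription factor gene Rbpj. They were found by gene symbol in the deposited table of neurosphere transcripts, and all 8 (Hes1, Hes5, Hes6, Hey1, Hey2, Heyl, Nrarp and Rbpj) were present among 54532 genes. RNA had been sequenced from primary neurospheres, the floating colonies that neural progenitor cells form in culture, grown for 6 days with EGF and bFGF at 20 ng/ml each. The cells came from C57BL/6 mouse embryos at E14.5. One group was wild type (WT). In the other, D6-Cre, a Cre transgene of the dorsal forebrain, had been used to delete Ash2l (KO), and each group had 3 libraries. ASH2L is a shared subunit of the complexes that methylate lysine 4 of histone H3. The comparison asks how transcript levels differ between KO and WT spheres, and the labels do not say whether WT embryos carried Cre or floxed alleles. In the labels the stated source is dorsal cortex, while the growth protocol has the walls of the lateral ventricles dissected, so the share of cells that D6-Cre could reach is unknown.

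Notch receptors are cleaved when a ligand on a neighbouring cell binds them, and the released intracellular domain joins the DNA-binding protein RBPJ to switch on target genes. Hes and Hey genes encode basic helix-loop-helix repressors. In the embryonic forebrain, Hes1 and Hes5 are known for holding progenitors undifferentiated by repressing proneural genes. Hes6 is a divergent relative known to oppose HES1 and to mark cells that enter neurogenesis.

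The region just before the start site is where RBPJ can act on a target gene, so the windows of 3 members are shown. RefSeq (GRCm38.p6) gave promoter entries for 5 of the 8 genes, Hes5, Hes6, Hey2, Nrarp and Rbpj, with 7 start sites among them. Hes5 and Hey2 were the members with an entry that passed the test below, and Hes6 was the most abundant member that did not. The windows are chr4:154960673-154960922 on the plus strand for Hes5, chr10:30842802-30843033 on the minus strand for Hey2 and chr1:91414039-91414288 on the minus strand for Hes6. Each is printed 5′ to 3′ along the gene, and capitals mark the letters TGGGAA, the core of the RBPJ motif, or their reverse complement.
Hes5: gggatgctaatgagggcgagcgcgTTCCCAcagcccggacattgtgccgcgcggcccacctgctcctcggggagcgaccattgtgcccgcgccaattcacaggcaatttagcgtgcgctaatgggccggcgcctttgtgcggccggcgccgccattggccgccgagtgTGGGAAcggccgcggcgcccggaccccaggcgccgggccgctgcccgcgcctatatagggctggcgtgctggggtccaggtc
Hey2: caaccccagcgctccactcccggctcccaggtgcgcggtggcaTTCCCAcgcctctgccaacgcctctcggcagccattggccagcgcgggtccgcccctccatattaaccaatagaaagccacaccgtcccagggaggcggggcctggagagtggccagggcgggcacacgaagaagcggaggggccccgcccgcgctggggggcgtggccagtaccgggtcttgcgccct
Hes6: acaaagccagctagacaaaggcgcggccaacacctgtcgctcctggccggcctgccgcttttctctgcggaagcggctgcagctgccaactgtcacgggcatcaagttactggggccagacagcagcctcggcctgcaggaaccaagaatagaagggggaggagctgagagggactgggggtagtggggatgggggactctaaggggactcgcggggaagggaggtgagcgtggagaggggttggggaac
In the 250 bases before its start the Hes5 window held the core 2 times, first on the minus strand at position -226 and then on the plus strand at position -82, counted from the start site. Both copies were part of the longer letters GTGGGAA, a motif that always contains the core. The Hey2 window held 1 copy of GTGGGAA on the minus strand, at position -207. Its last 18 bases, which the table counts as part of the gene, are not printed. Neither Hes6 window held the core, and neither did that of Nrarp. One Rbpj window held the core 2 times and the other held it 1 time, without the longer motif. Over all 32851 RefSeq promoter windows of the same length and on both strands, 21.6% held TGGGAA and 5.42% held GTGGGAA, and 0.161% held GTGGGAA 2 or more times. The letters CACNAG, the N box that HES proteins bind, occurred 2 times in the Nrarp window and 1 time in the second Hes6 window, and were in 36.7% of all windows. The E box CACGTG stood once in the Nrarp window and in 6.02% of all windows, and CACGCG, in 7.62% of all windows, was in none of the 7. A match describes letters in a window and does not show binding.

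Library totals ran from 16764480 to 21983659 counts, so that a floor of 3 reads lay at 0.136 to 0.179 CPM. CPM are read counts scaled by library size, here normalised by TMM. Levels are given as CPM, or as the deposited FPKM where genes are compared with each other. Values by library are always listed in the order WT 3, WT 6, WT 7 and KO 1, KO 2, KO 3, the numbers the submitters gave. The targeted gene Ash2l stood at 116, 113 and 109 CPM across WT and at 86.3, 99.3 and 102 CPM across KO. The groups did not overlap, but the difference did not pass the test (log2 fold change -0.24, SE 0.10, edgeR quasi-likelihood test, Benjamini-Hochberg adjusted p = 0.119). A count over the whole gene cannot show which part was deleted. WT 3 stood apart from the other WT libraries on the leading principal component (69.9% of the variance), at -25.5 against -81.7 and -85.7, with KO between 53.5 and 76.8. The labels do not say that libraries came from separate embryos or cultures, so p-values measure the spread between libraries, which may be partly technical.

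All 8 genes were tested, and 3 passed an adjusted p of 0.05, Hes5, Hey1 and Hey2, each lower in KO (edgeR quasi-likelihood test, adjusted over the 16606 genes tested). None was higher, whether by the adjusted or the unadjusted p of edgeR at 0.05 or by DESeq2. Among all tested genes 29% passed, 15.5% lower and 13.5% higher. The WT and KO libraries did not overlap for 5 of the 8 genes, against 48.6% of all tested genes. The median log2 fold change of the 8 was -0.47, and that of all tested genes was 0.0019. In bulk RNA, fewer cells of a type and less RNA per cell cannot be told apart.

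**Figure D1:**
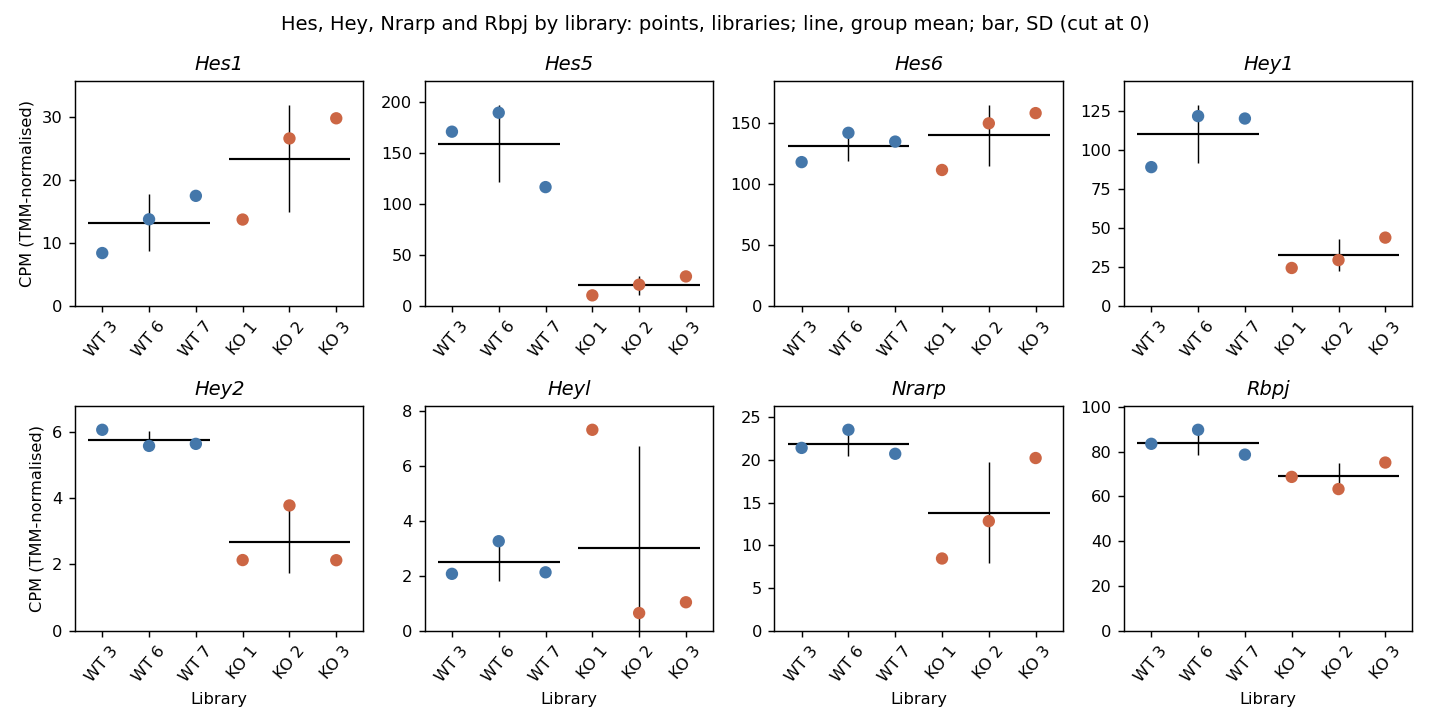
Normalised CPM of the 8 genes in each of 3 WT (blue) and 3 KO (orange) libraries, each panel on its own linear axis from 0, with the group mean as a line and the SD as a bar. Every KO library lies below every WT library for Hes5, Hey1, Hey2, Nrarp and Rbpj, and KO 1 stands alone for Heyl.

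Hes5 (ENSMUSG00000048001, chr4:154960923-154962371 of mm10, plus strand), a main Notch target of cortical progenitors, showed the largest difference of the 8 genes. Levels were 171, 189 and 117 CPM across WT against 10.6, 21.1 and 29.1 CPM across KO. Every KO library lay far below the lowest WT library. The means were 159 ± 37.8 and 20.3 ± 9.29 CPM (SD, n = 3 each), and Hes5 fell 7.82-fold. The log2 fold change was -2.97 (SE 0.38, 95% interval -3.86 to -2.07, edgeR adjusted p = 0.00297). Only 0.656% of all tested genes had a lower log2 fold change. The estimate stayed between -3.30 and -2.64 with any 1 library left out, and the call held each time. An unstranded count could take in reads of Gm20421, an overlapping transcript on the other strand, but that gene had at most 4 reads in a library.

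Hey1 (ENSMUSG00000040289, chr3:8663359-8667256, minus strand), a repressor that binds promoters and dimerises with HES proteins, was the other abundant member that fell. Its WT values were 88.9, 122 and 120 CPM, and its KO values 24.4, 29.5 and 43.8 CPM. The highest KO library was below the lowest WT library. The means were 110 ± 18.4 and 32.6 ± 10.1 CPM (SD, n = 3 each), 3.38-fold lower in KO. Its log2 fold change was -1.76 (SE 0.24, 95% interval -2.32 to -1.19, edgeR adjusted p = 0.00368). Leaving out any 1 library gave -2.01 to -1.56, with the call kept each time.

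Hey2 (ENSMUSG00000019789, chr10:30832359-30842801, minus strand), best known from heart and vessel development, was scarce in these spheres. The WT libraries had 108, 111 and 119 reads (6.06, 5.57 and 5.63 CPM) and the KO libraries 37, 70 and 45 reads (2.13, 3.78 and 2.13 CPM). The WT libraries were close together and all above KO. Hey2 fell 2.15-fold, with a log2 fold change of -1.10 (SE 0.30, 95% interval -1.82 to -0.38, edgeR adjusted p = 0.035). The call was lost without WT 6, WT 7, KO 1 or KO 3 (edgeR adjusted p = 0.0978, 0.0915, 0.114 and 0.0935), although the estimate stayed between -1.43 and -0.93.

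Heyl (ENSMUSG00000032744, chr4:123233556-123249875, plus strand), the remaining Hey gene and one known from vascular smooth muscle and pericytes, was the member whose libraries disagreed most. The WT libraries held 2.08, 3.26 and 2.13 CPM and the KO libraries 7.32, 0.648 and 1.04 CPM. KO 1 was the highest of all 6 libraries, and the other KO libraries were the lowest. On the log2 scale the fold change was 0.26 (SE 0.86, 95% interval -1.76 to 2.28, edgeR adjusted p = 0.834). Without KO 1 it was -1.52 (edgeR adjusted p = 0.057), the opposite direction.

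Of 8 listed markers of mural cells, which wrap blood vessels, 5 were highest in KO 1 (Pdgfrb, Rgs5, Acta2, Anpep and Abcc9) and 3 were not (Cspg4, Des and Kcnj8). Pdgfrb, a pericyte receptor gene, measured 26 CPM in KO 1 against 3.35 and 3.36 in KO 2 and KO 3, and 10.7, 3.51 and 3.22 CPM across WT. Anpep measured 5.13 CPM in KO 1 against 0.648 and 0.615 in KO 2 and KO 3, and at most 0.28 in WT. Rgs5 stood at 5.07, 3.51 and 0.946 CPM across KO and at 0.561, 1.31 and 0.521 CPM across WT. WT 3 had more Pdgfrb than the other WT libraries but not more Heyl, and KO 2 had Rgs5 above WT with the lowest Heyl. Cspg4, in contrast, was lowest of all libraries in KO 1, at 47.6 CPM against 119 and 141 in KO 2 and KO 3, and Des was at 0.288 CPM against 1.08 and 1.09. Of the 8 mural markers listed 5 were tested, 2 were higher in KO (Acta2 and Anpep) and 0 lower, beside 29% called among all tested genes. Acta2 had 2, 2 and 2 reads across WT and 23, 13 and 24 across KO. Anpep had 5, 2 and 3 reads across WT and 89, 12 and 13 across KO. Both met the expression filter only through the KO libraries, so the direction of these 2 calls was fixed in advance. The summed level of the 8 mural markers was mostly Cspg4, which oligodendrocyte progenitors also express. It was 59.4 to 107 CPM in WT and 85.9 to 149 CPM in KO, and KO 1 had the lowest sum of the KO libraries. Kcnj8 had 0 reads in KO 1 and in every WT library, and at most 2 in another KO library. The part of mural cells in the Heyl value of KO 1 was not tested.

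**Figure D2:**
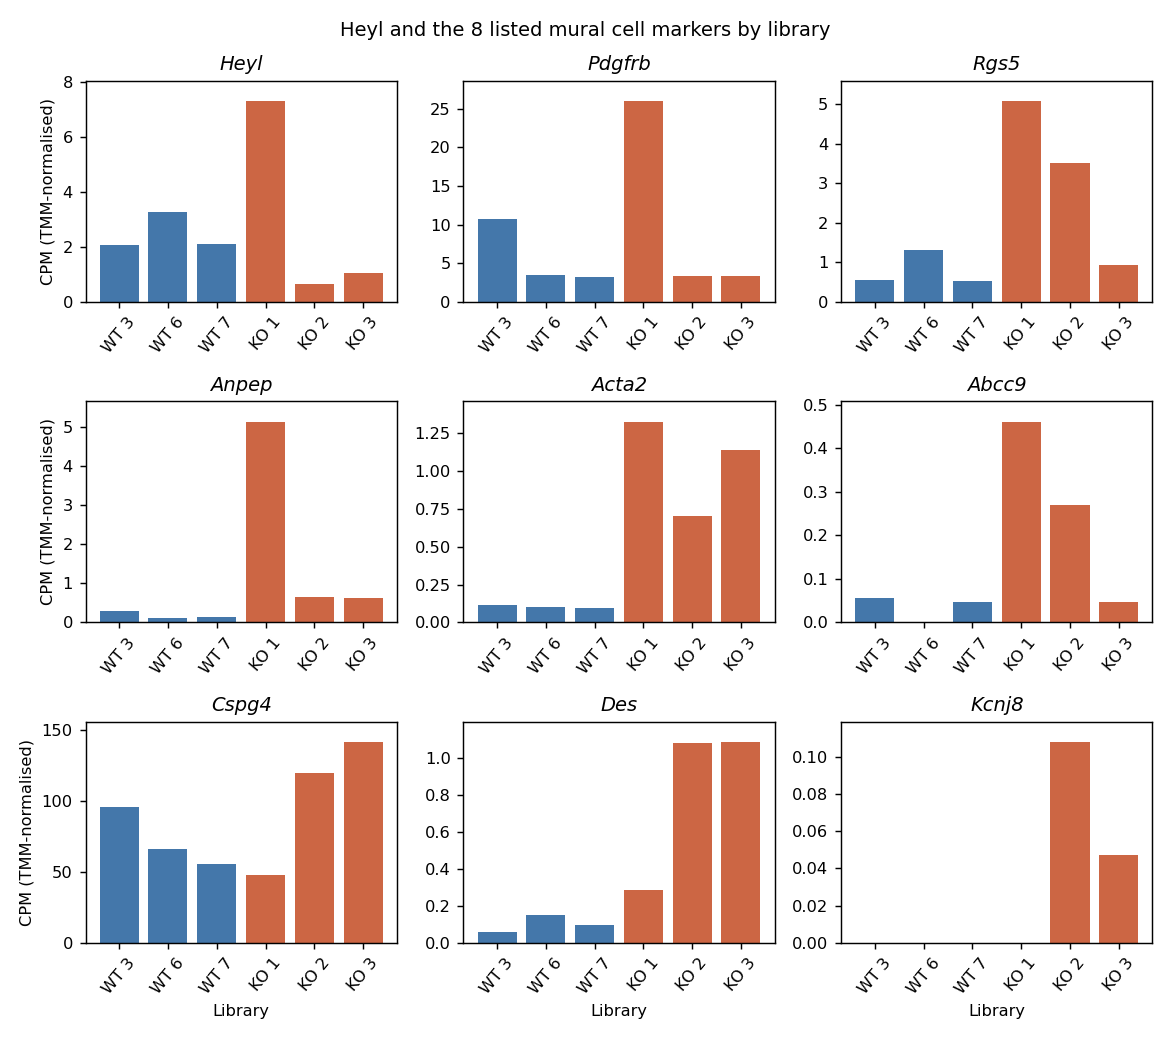
Normalised CPM of Heyl and the 8 listed mural cell markers in each WT (blue) and KO (orange) library, with bars from 0 and a separate axis per gene. KO 1 is highest for Heyl and for 5 of the 8 markers, and lowest of all libraries for Cspg4 (47.6 CPM).

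Hes1 (ENSMUSG00000022528, chr16:30064384-30067796, plus strand), the Hes gene whose expression oscillates in progenitors, did not follow Hes5. Levels were 8.41, 13.8 and 17.5 CPM across WT against 13.7, 26.6 and 29.7 CPM across KO. KO 2 and KO 3 were above every WT library, but KO 1 lay within the WT range. The means were 13.2 ± 4.55 and 23.3 ± 8.49 CPM (SD, n = 3 each). The log2 fold change was 0.82 (SE 0.36, 95% interval -0.04 to 1.68), which did not pass the test (edgeR adjusted p = 0.128). It was positive and did not pass under any alternative tried, including each library left out.

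The contrast between Hes5 and Hes1 could be read within each library as a ratio of FPKM. The Hes5 to Hes1 ratio was 30.3, 20.6 and 9.97 across WT, and 1.16, 1.18 and 1.46 across KO. The KO libraries were nearly alike, with Hes5 only slightly above Hes1, and all lay below WT. The mean log2 ratio was 4.20 ± 0.81 in WT and 0.33 ± 0.19 in KO (SD, n = 3 each). The difference was -3.87 (exact permutation test, two-sided, p = 0.1, the smallest that 3 against 3 allows).

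Hes6 (ENSMUSG00000067071, chr1:91411483-91414038, minus strand) had overlapping levels in the groups. Its WT values were 118, 142 and 135 CPM, and its KO values 111, 150 and 158 CPM. The groups overlapped, with means of 132 ± 12.3 and 140 ± 24.8 CPM (SD, n = 3 each). The log2 fold change was 0.09 (SE 0.15, edgeR adjusted p = 0.686). Its 95% interval of -0.28 to 0.45 was the second narrowest of the 8 and did not reach the size of change seen in Hes5 or Hey1.

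**Figure D3:**
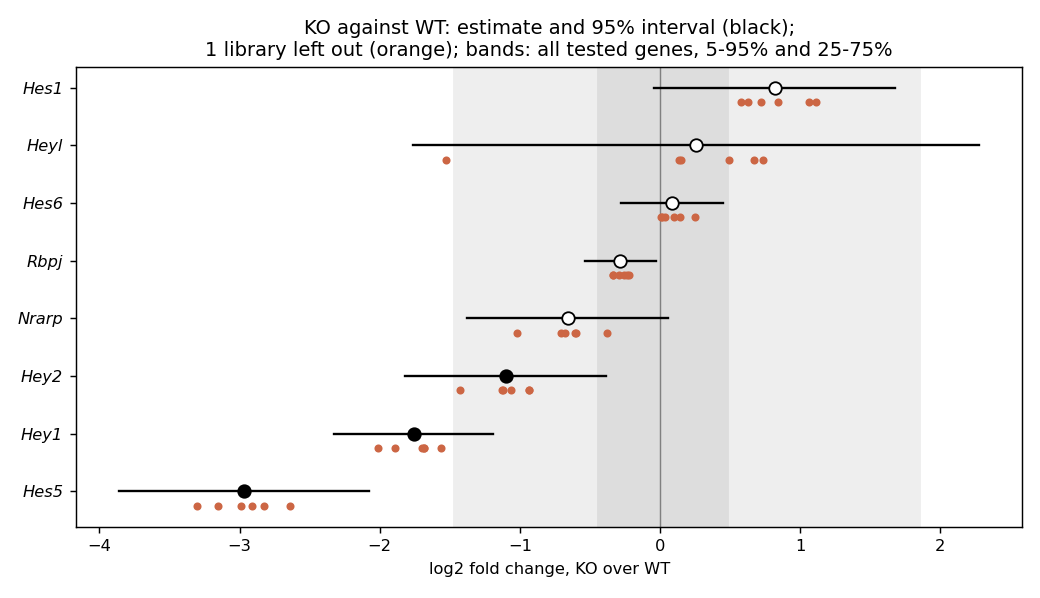
Log2 fold change of KO over WT for each gene (filled where the adjusted p was under 0.05), with its 95% interval as a black line and the estimates with 1 library left out as orange points; the bands span the 5th to 95th (-1.47 to 1.86) and 25th to 75th (-0.44 to 0.48) percentiles of all tested genes. Hes5 and Hey1 lie below the wider band, and the Heyl point at -1.52 is the estimate without KO 1.

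Nrarp (ENSMUSG00000078202, chr2:25180758-25183339, plus strand) encodes an ankyrin-repeat protein that Notch induces and that in turn limits Notch signalling. The WT libraries held 21.4, 23.5 and 20.7 CPM and the KO libraries 8.47, 12.8 and 20.2 CPM. The groups did not overlap, but KO 3 nearly reached the lowest WT library. A log2 fold change of -0.66 (SE 0.30, 95% interval -1.38 to 0.06) did not pass the test (edgeR adjusted p = 0.141). Without KO 3 it was -1.02 and passed (edgeR adjusted p = 0.032).

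Rbpj (ENSMUSG00000039191, chr5:53466152-53657362, plus strand), the DNA-binding partner of every Notch receptor, differed least among the genes whose groups did not overlap. Levels were 83.5, 89.7 and 78.6 CPM across WT against 68.7, 63.3 and 75.1 CPM across KO. All KO libraries were below WT by a small margin. The log2 fold change was -0.28 (SE 0.11, 95% interval -0.54 to -0.03, edgeR adjusted p = 0.089). The annotated pseudogene Rbpj-ps3 had 17 to 30 reads a library and Rbpj-ps1 had 0, against 1172 to 1787 for Rbpj, and how many reads they share was not measured.

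Per length, the order of the 8 genes differed between the groups. In WT the mean FPKM was 114 ± 27.9 for Hes5, 71 ± 4.6 for Hes6, 32.9 ± 4.56 for Hey1 and 8.29 ± 0.528 for Nrarp (SD, n = 3 each). Rbpj at 6.44 ± 0.448 FPKM and Hes1 at 6.30 ± 2.03 FPKM followed, and these neighbours overlapped, as Hes1 also did with Nrarp. Hey2 at 1.23 ± 0.0964 FPKM and Heyl at 0.475 ± 0.119 FPKM came last. In KO Hes6 led at 78.7 ± 13 FPKM, above all others. Hes5 at 15.1 ± 6.75, Hes1 at 11.6 ± 4.11 and Hey1 at 10.1 ± 3 FPKM overlapped one another. Rbpj at 5.52 ± 0.444 and Nrarp at 5.45 ± 2.27 FPKM overlapped too, Nrarp also with Hes1 and Hey1, as did Heyl at 0.605 ± 0.76 and Hey2 at 0.595 ± 0.21 FPKM. The FPKM of Rbpj rests on a gene length of 12750 bases, so transcripts shorter than that length would be understated.

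Together the 6 Hes and Hey genes summed to 227, 253 and 199 FPKM across WT, and to 88.5, 123 and 138 FPKM across KO. Hes5 made up 50 ± 7.73% of that sum in WT and 12.5 ± 3.24% in KO (SD, n = 3 each). Hes6, whose own levels overlapped, went from 31.7 ± 3.77% to 68 ± 4.25%. The share of Hes1 was 2.85 ± 1.17% in WT and 9.75 ± 1.63% in KO, and that of Hey1 was 14.7 ± 2.83% and 8.65 ± 1.16%. The ranges of WT and KO did not overlap for any of these 4 shares, which depend on each other because they add to a fixed total.

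**Figure D4:**
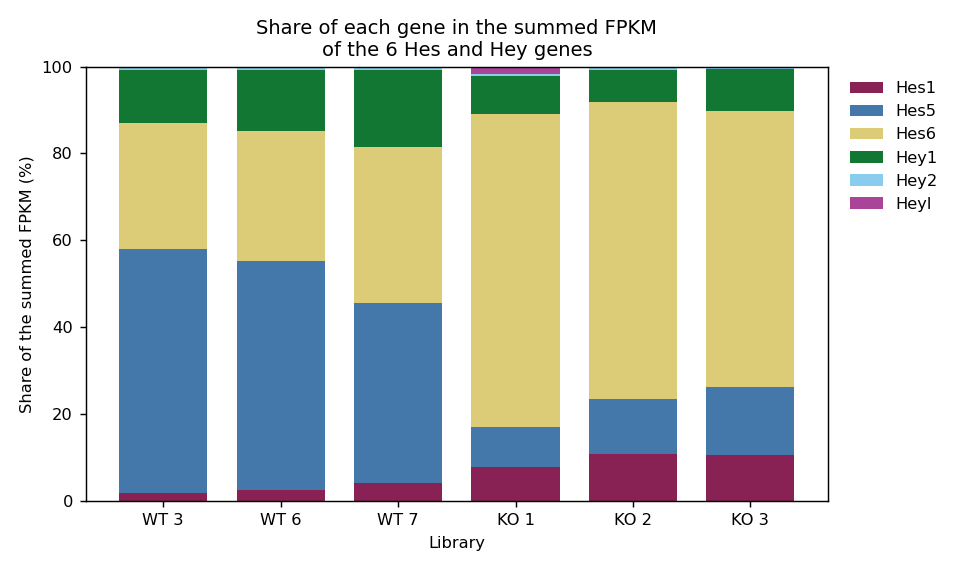
Stacked bars of the share of each of 6 Hes and Hey genes in their summed FPKM (%), 1 bar per library. Hes5 is the largest share in every WT library (41.3% to 56%) and Hes6 in every KO library (63.6% to 72.1%).

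The KO libraries did not differ from WT to the same degree. For 5 of the 8 genes, Hes1, Hes5, Hes6, Hey1 and Nrarp, KO 1 was the lowest and KO 3 the highest of the KO libraries. That put KO 1 furthest from WT for Hes5, Hey1 and Nrarp but nearest for Hes1, and Hes6 overlapped WT. How many of all tested genes had this order was not counted. The Notch ligand gene Dll1 had that order too, at 31.2, 35.8 and 65.9 CPM. Jag1, another ligand gene, had the reverse order, at 78.4, 69.3 and 25.1 CPM. Hey2, Heyl and Rbpj had other orders.

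Over the 6 libraries, the log2 CPM of Hes5 was most like that of Sh3bp4, Tmem100 and Elfn1 by Pearson correlation. For Hey1 these were Enho, Cbr4 and Acsf3, for Hey2 Ttc25, Ttc41 and Gpr62, and for Hes1 Ppp1r15b, Bax and Cops7a. For Hes6 they were Llph, Pias4 and Mcfd2, for Heyl Fgf14, Mprip and Ttbk1, for Nrarp Midn, Eif3f and Pold4, and for Rbpj Grcc10 and Zfp868. All r were at least 0.978. The points share their libraries and depth, and these are the highest of 12461 candidates for each gene. The genes named for Hes5, Hey1 and Hey2 had log2 fold changes of -2.63 to -0.97, while those named for Hes6 and Heyl lay between -0.09 and 0.12. Genes chosen for likeness over the same 6 libraries are bound to resemble the member in group difference, so this contrast is no separate result.

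Upstream of these genes, 3 of the 4 Notch receptor genes fell and 0 rose (median log2 fold change -0.80). Among all tested genes 15.5% were called lower and 13.5% higher, 29% together. Notch3 had 125, 113 and 131 CPM across WT and 58.7, 46 and 86.4 CPM across KO (log2 fold change -0.95, SE 0.22, edgeR adjusted p = 0.0211). Notch1 stood at -0.65 (SE 0.17, edgeR adjusted p = 0.0271) and Notch2 at -1.26 (SE 0.32, edgeR adjusted p = 0.028), and Notch4, an endothelial receptor, did not pass at -0.34. These calls were fragile. Those of Notch1 and Notch2 ended when any 1 library other than WT 3 was left out, and that of Notch3 without WT 6, WT 7, KO 1 or KO 2.

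The ligand genes split, with 2 of 5 lower, 1 higher and a median of -0.72, beside 29% called among all tested genes. Dll1, which neurogenic cells present to their neighbours, had 127, 146 and 129 CPM across WT and fell by 1.59 on the log2 scale (SE 0.28, edgeR adjusted p = 0.00762). Dll3, a ligand that acts inside its own cell, stood at -1.94 (SE 0.49, edgeR adjusted p = 0.0267) and at -2.61 without KO 3, and its call ended without WT 6, WT 7 or KO 2. Jag1 had 11.2, 24.8 and 23.5 CPM across WT and 78.4, 69.3 and 25.1 CPM across KO. KO 3 was barely above the highest WT library. Its log2 fold change was 1.54 (SE 0.47, edgeR adjusted p = 0.0484), and the call ended when any 1 library other than KO 3 was left out. Dll4 at -0.72 and Jag2 at 0.69 did not pass, but Jag2 stood at 1.48 and passed without WT 3 (edgeR adjusted p = 0.00986), as it did with limma-voom (adjusted p = 0.0171).

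Of 24 genes that process or move Notch, 4 fell and 2 rose (median -0.22), a share of calls below the 29% of all tested genes. Mfng, whose product adds sugars to Notch and so changes which ligand it answers to, fell by 2.09 (SE 0.38, edgeR adjusted p = 0.00878). Of 15 RBPJ coactivators and corepressors 3 fell (Cir1, Spen and Maml1) and 1 rose (Hdac2), with a median of -0.23 and again a share below 29%, and none of these 4 calls held with every library left out in turn. Of the 6 Groucho/TLE genes tested, 3 rose (Tle6, Aes and Tle2) and 2 fell (Tle1 and Tle4), a share above 29%, with a median of 0.20. HES proteins recruit the full-length members of this family to repress, while Aes is a short form and Tle6 a divergent one. The calls ended without WT 6 or WT 7 for Aes, without WT 6, WT 7, KO 2 or KO 3 for Tle2, without WT 6, WT 7 or KO 1 for Tle1 and without WT 6 or KO 2 for Tle4. Tle6 rose most, from 4.43, 2.26 and 2.32 CPM across WT to 15.3, 28 and 26 CPM across KO (log2 fold change 2.95, SE 0.37, edgeR adjusted p = 0.00287).

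Among other genes of the Hes-related family, 4 of 6 were tested, 1 fell and 0 rose (median -1.05). Over all tested genes 29% were called. Helt had 51, 58 and 85 reads across WT and 0, 0 and 12 reads across KO (edgeR adjusted p = 0.0254), a call that ended without WT 6, WT 7, KO 1 or KO 2. The KO libraries alone would not have met the expression filter, so the direction of the Helt call was fixed in advance. Bhlhe41 at -1.41 (edgeR adjusted p = 0.0541), Hes7 at -0.70 and Bhlhe40 at 0.11 did not pass. Without WT 3 Bhlhe41 passed at -1.69 (edgeR adjusted p = 0.0131), as it did with DESeq2, limma-voom and no expression filter, and without KO 3 Hes7 passed at -1.38 (edgeR adjusted p = 0.0416). Hes3 had 0, 11 and 16 reads across WT and 0 in every KO library, and Hes2 had 0 in all 6.

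**Figure D5:**
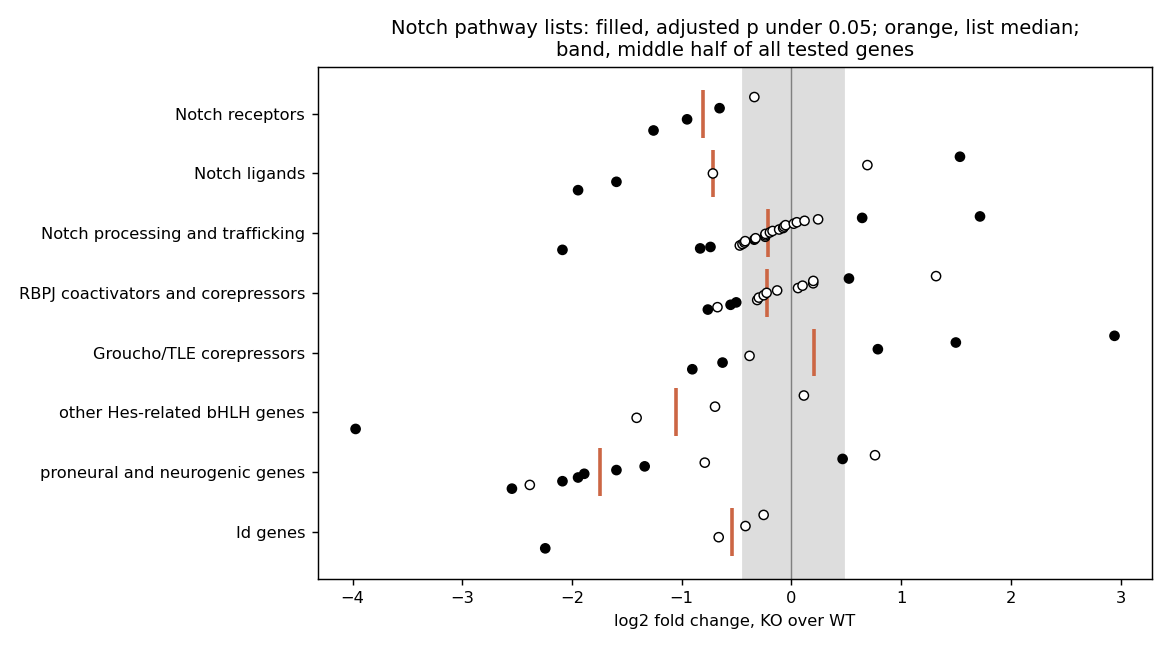
Log2 fold change of KO over WT for each tested gene of 8 pathway lists, filled where the adjusted p was under 0.05, with the list median in orange and the 25th to 75th percentile of all tested genes (-0.44 to 0.48) as a band. The medians of receptors, ligands, other Hes-related, proneural and Id genes lie below the band.

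Proneural and neurogenic genes, the class that HES proteins are known to repress, were mostly lower as well. Of 13 listed 10 were tested, 6 fell and 1 rose (median -1.74), and Dll1, Dll3 and Mfng stand in this list too. Over all tested genes 29% were called, a share that also stands beside the Id genes below. Gadd45g, a gene of cells leaving the cycle, fell by 1.89 (SE 0.26, edgeR adjusted p = 0.0038). Of the 4 Id genes, which encode partners that keep helix-loop-helix factors from DNA, Id4 fell by 2.24 (SE 0.30, edgeR adjusted p = 0.00357) and the other 3 did not pass (median -0.54). Of 27 called genes over the 8 pathway lists, 5 kept their call with each library left out in turn, Dll1, Mfng, Tle6, Gadd45g and Id4.

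Markers of neural cell types and of proliferation were also compared, beside the 29% of all tested genes that passed. Which cells made the Hes and Hey transcripts was not measured. Of 8 radial glia markers 3 fell (Pax6, Sox2 and Prom1) and 1 rose (Nes), with a median of -0.29. Pax6 stood at -1.24 (edgeR adjusted p = 0.000999) and Nes at 2.21 (edgeR adjusted p = 0.00242). The summed level of the 8 overlapped, at 4472 to 6246 CPM in WT and 4298 to 6962 CPM in KO. That sum was mostly Fabp7, Slc1a3 and Vim, which did not pass, so its overlap does not describe the other markers. Of 8 astrocyte markers 7 fell (median -2.54), with sums of 2143 to 7271 CPM in WT, the lowest in WT 3, and 579.9 to 888 CPM in KO. Hes5 stood at 171, 189 and 117 CPM across WT and at 10.6, 21.1 and 29.1 CPM across KO. Of 8 oligodendrocyte lineage markers 6 fell (median -3.13), with sums of 3824 to 4566 CPM in WT and 1114 to 2043 CPM in KO. Olig1 (log2 fold change -0.11) and Olig2 (-0.02) did not pass and made up most of the sum in each KO library. Mag, counted among those that fell, had 2, 4 and 35 reads across KO. The KO libraries alone would not have brought Mag through the expression filter, so its direction was fixed in advance. Of 8 neuron markers 2 rose and 0 fell (median 1.33), a share of calls below 29%. Their sums were 1403 to 2533 CPM in WT and 2542 to 3753 CPM in KO, with WT 3 and KO 2 nearly equal. All 8 proliferation markers rose (median 3.31), with sums of 184 to 345 CPM and 1695 to 2211 CPM. The part of these differences in the lower Hes5, Hey1 and Hey2 was not tested.

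Vessel and immune cells gave few reads. Of 10 endothelial markers 3 were tested and 1 fell, with sums of 5.26 to 7.48 CPM in WT and 3.59 to 7.09 CPM in KO. Kdr was the gene that fell, from a mean of 4.70 CPM in WT to 1.11 CPM in KO. It made up most of the WT sums, so their overlap with KO does not describe the other markers. Pecam1 (0.755 and 1.46 CPM) and Esam (0.575 and 0.924 CPM) had higher means in KO but did not pass. The defining genes Cdh5, Cldn5, Erg and Tie1 were at 0 in every WT library and had at most 7 reads in a KO library. Of 6 microglia markers 2 were tested and 0 passed (edgeR, and 0 at an unadjusted p under 0.05), with sums of 1.07 to 2.26 CPM in WT and 1.84 to 6.80 CPM in KO.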

How the data were processed

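Reads were processed with the mm10 build and with featureCounts 1.5.0-p3, HISAT2 2.0.5 and DESeq2 1.16.1, per the submitters' processing notes. For the settings, annotation and use of strand, nothing is given in the sources used here. Deposited gene counts are whole reads per gene, not normalised by the authors, per the column sums. The column headers name the FPKM as counts too, so the headers do not tell counts and FPKM apart. The deposited FPKM are the authors' values per gene length and library total. They gave back the counts in all but 4 of 327192 values, none of them of the 8 genes.

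Counts of all 6 libraries were fitted without covariates in edgeR 4.0.16 (R 4.3.3) with TMM (factors 0.961 to 1.04) and the filterByExpr defaults, which kept 16606 genes. The quasi-likelihood F test was two-sided, with Benjamini-Hochberg adjustment over all tested genes and a threshold of 0.05. The procedure was tested on simulated data. An SE is the log2 fold change divided by the square root of F.

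The 8 genes and the 16 gene lists were chosen with earlier results of these data known. Named were the 8 genes, Ash2l, the receptor, ligand and Hes-related lists in full, up to 4 tested genes of lowest p per other list, and for each of the 8 the 3 protein-coding genes (mean CPM of at least 2) with the highest Pearson r. Vessel and immune markers at or near 0 and the examples of KO library order were added after their values were seen. So were list members Pdgfrb, Kcnj8, Des, Abcc9, Tle2, Fabp7, Slc1a3, Vim, Olig1 and Olig2. Aes stood in the table for Tle5. Some genes that this rule takes are not reported here, and counts include them. Alternatives were other scalings, filters, tools and units, and each library left out.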

Additional observations from a re-analysis of the deposited data

How the results depend on the processing

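Hes1, Hes5, Hes6 and Hey1 kept their direction and their side of the threshold under all 16 alternatives each. The Heyl log2 fold change turned negative with limma-voom (-0.84), on log2(FPKM + 0.1) (-0.24) and without KO 1 (-1.52), and the cause was not tested. Hey2 no longer passed on log2(FPKM + 0.1) (-0.97, limma adjusted p = 0.0553) or against a 1.5-fold change (-1.10, edgeR adjusted p = 0.159), and without WT 6 (-1.13), WT 7 (-1.12), KO 1 (-0.93) or KO 3 (-0.94). With limma-voom and quality weights Nrarp (-0.83, adjusted p = 0.0208) and Rbpj (-0.34, adjusted p = 0.0278) also passed, which made 5 of the 8 genes, and Nrarp passed without KO 3 (-1.02). With 1 library left out, 2 to 3 of the 8 passed, all lower, and the log2 fold changes ran from -1.43 to -0.93 for Hey2, -1.52 to 0.74 for Heyl and -1.02 to -0.38 for Nrarp. The count of called genes, 4812, was 8052 with limma-voom, 1522 against a 1.5-fold change and 2178 to 6641 with 1 library left out, lowest without WT 6 and highest without WT 3. The log2 difference of the Hes5 to Hes1 ratio ran from -4.31 to -3.51 with 1 library left out, where the group with 2 libraries allows no exact test at 0.05. The counts implied by FPKM were an alternative chosen after seeing the data, and they left all 8 genes on the same side. No paired analysis was possible because the groups share 1 replicate number, and the labels do not say that it pairs them. Heyl and Hey2 had the fewest reads of the 8 genes, at 12 to 127 a library. The SE was 0.86 for Heyl and 0.30 for Hey2, against 0.38 for Hes5, and the part of depth in these was not tested.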
